A study of Arabidopsis thaliana and Brassica rapa with 28 samples.

Results

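The genes described here are 150 Brassica rapa genes whose transcripts fell most in shade in both whole hypocotyls and peels of the hypocotyl epidermis, out of 21104 genes that could have been chosen. The RNA came from 12 libraries of 4-d-old wild-type plants of the FPsc strain, raised on agar in continuous white light (W) and then given 9 h of W or of shade (light poor in red relative to far-red). There were 3 libraries in each of 4 groups, namely whole hypocotyls in W, whole hypocotyls in shade, epidermal peels in W and epidermal peels in shade. No group carried a transgene, and the labels do not say how many plants went into a library or whether libraries came from separate cultures. The authors' tables give each gene 1 FPKM per group (fragments normalised for transcript length and sequencing depth), pooled over the libraries, so every value below is a group value with no spread between libraries.

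A gene was eligible if it had a Brara identifier, an FPKM of at least 1 in all 4 groups and a log2 ratio of peel to whole between -2 and 2 in each light. The log2 ratio of W to shade was then taken in each tissue, and the smaller of the pair was the score by which genes were ranked. The 150 highest scores make up the list, 0.711% of the eligible genes, so a large fall in both tissues is what chose these genes and is not a finding about them. The last 3 genes inside the list had scores of 2.39, 2.39 and 2.38, and the first 3 outside had 2.38, 2.38 and 2.38, so the border marks no break. The score at the border corresponds to a 5.22-fold lower level in shade. The tables pair Brara identifiers with no gene name, and 0 of the 40481 identifiers matched the reference table at hand, so members are given by rank in the list and by chromosome, and no function is assigned to any of them. For the same reason the peels were not checked here against markers of the epidermis.

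In plants, light filtered by leaves is poor in red, which turns the photoreceptor phytochrome towards its inactive form. In Arabidopsis this releases the PIF transcription factors, which raise auxin synthesis and the elongation of the hypocotyl, while many genes that light switches on, such as those of flavonoid synthesis, are expressed less. The epidermis is the layer whose stretching is thought to limit the growth of the stem. Brassica rapa descends from an ancestor whose whole genome was multiplied, so many of its genes have close copies, and short reads can match more than 1 of them.

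Across the list, the median FPKM in whole hypocotyls was 40.8 in W and 4.42 in shade. In peels it was 44.2 in W and 4.67 in shade. Taken gene by gene, the median fall was 3.16 on the log2 scale, or 8.92-fold, in whole hypocotyls and 3.04, or 8.21-fold, in peels. Over all eligible genes the medians of the same log2 ratios of W to shade were -0.02 and -0.03. Members kept a median of 11.2% of their W level after 9 h of shade in whole hypocotyls, with a range from 1.70 to 19.1%, and 12.2% in peels, with a range from 2.17 to 19.2%. The authors' deposited table called 149 of 150 members lower in shade in whole hypocotyls (q under 0.05), where 19.6% of eligible genes tested and 20% of all genes tested were called lower. In peels 148 of 150 were called, beside 17.9% of eligible and 18.6% of all genes tested. The members were chosen on these contrasts, so the counts are given only to account for each of them. The member ranked 124 was not tested, as the authors' run gave it the status LOWDATA without stating a reason. The member ranked 95 was called in whole hypocotyls (q = 0.00984) and not in peels (q = 0.0856 in the authors' deposited table). In bulk tissue, fewer cells of a type and less RNA per cell cannot be told apart.

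**Figure D1:**
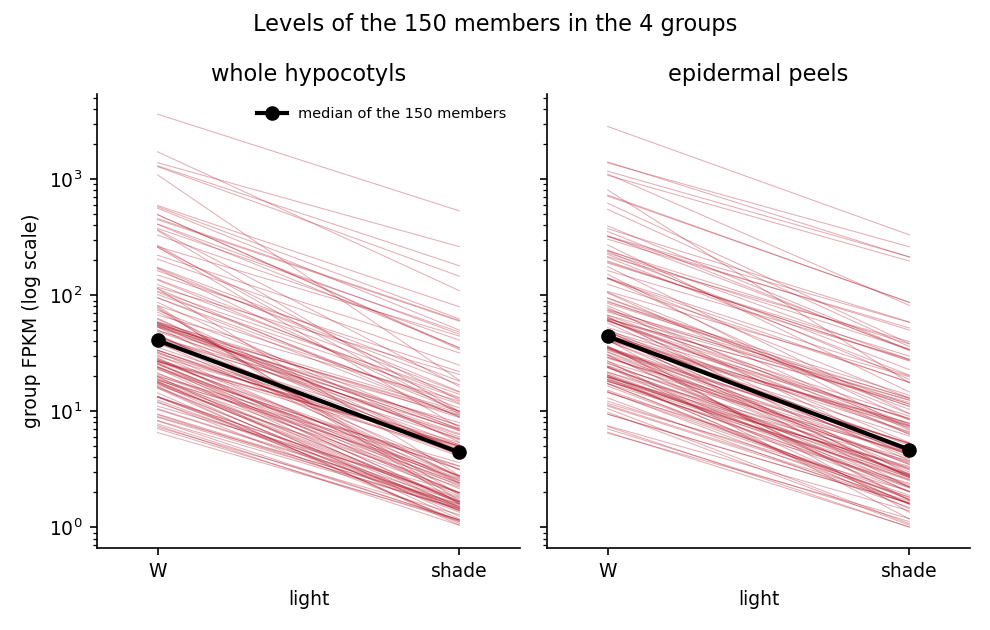
Group FPKM (log scale) of each of the 150 members in W and in shade, in whole hypocotyls and in epidermal peels; each thin line is 1 gene and the black line joins the medians. Starting levels in W whole hypocotyls run from 6.55 to 3631 FPKM, and falls there from 2.39, set by the border of the list, to 5.88 on the log2 scale.

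The highest rank went to Brara.G02312, on chromosome A07 in a merged locus from 19793265 to 19803417, whose other gene was listed at 0 in whole hypocotyls. The sources used here do not give the build of these coordinates. Its FPKM was 1088 in W and 18.5 in shade in whole hypocotyls, and 808 in W and 17.5 in shade in peels. Among the eligible genes it had the largest fall in either tissue, 5.88 ± 0.28 on the log2 scale in whole hypocotyls and 5.53 ± 0.30 in peels, where ± is a standard error derived from the deposited Cuffdiff statistic. It kept 1.70% of its W level in whole hypocotyls and 2.17% in peels. Its levels in the tissues differed little in comparison, and the authors' deposited tables did not call peels against whole hypocotyls in W (q = 0.190) or in shade (q = 0.784).

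At ranks 2 to 5 the level in W was higher in whole hypocotyls and the fall was larger there. The member ranked 2, on chromosome A01, went from 114 to 2.79 FPKM in whole hypocotyls and from 41.4 to 1.35 in peels. The member ranked 3, on A05, went from 78.7 to 1.58 FPKM in whole hypocotyls and from 65.7 to 2.84 in peels. Its tissues were not called different in W (q = 0.246 in the authors' deposited table). At rank 5, on A02, levels were 361 and 9.94 FPKM in whole hypocotyls and 141 and 8.42 in peels, in W and shade respectively. All 4 genes of these ranks fell by at least 4 on the log2 scale in each tissue, and with ranks 1 and 6 they were the 6 members to do so.

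The order turned at ranks 6, 7, 9 and 10, where the listed level was higher in peels in both lights and the fall was slightly larger there. In shade the authors' deposited table called only rank 6 of these higher in peels (q = 0.0373). Ranks 7, 9 and 10 were not called (q = 0.0630, 0.117 and 0.273). The member ranked 6, on A06, had 25.9 FPKM in W and 1.60 in shade in whole hypocotyls, and 78.4 and 4.34 in peels. At rank 7, on A09, the values were 19.9 and 1.24 FPKM in whole hypocotyls and 45.2 and 2.72 in peels. At rank 10, on A04, they were 16.3 and 1.04 FPKM in whole hypocotyls and 36.0 and 1.69 in peels. Several of these shade levels lie close to the minimum of 1 FPKM that the rule required, so a deeper fall would have removed the gene from the list. In all, 63 members fell by at least 3 on the log2 scale in both tissues.

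High abundance and a large fall went together at rank 1, but not at the most abundant member. Brara.D00896, ranked 82 and located on chromosome A04 from 8393822 to 8394698, had the highest W level of the list. Its FPKM was 3631 in W and 533 in shade in whole hypocotyls, and 2843 in W and 331 in shade in peels. It fell by 2.77 ± 0.11 on the log2 scale in whole hypocotyls and by 3.10 ± 0.12 in peels, which left 14.7% and 11.6% of its W level. In shade it was lower in peels than in whole hypocotyls (log2 ratio -0.69, q = 0.000957 in the authors' deposited table), and in W that contrast was not called (log2 ratio -0.35, q = 0.189). The standard error derived for the ratio in W was 0.13, which is small for such a q. The ± values of this gene may therefore be too small.

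Another 5 members exceeded 1000 FPKM in W whole hypocotyls. The member ranked 51, on A01, went from 1720 to 109 FPKM in whole hypocotyls and from 730 to 86.5 in peels. At rank 146, on A04, the levels were almost the same in both tissues, 1386 and 262 FPKM in whole hypocotyls and 1380 and 261 in peels. Rank 91, on A01, had 1301 and 179 FPKM in whole hypocotyls and 1410 and 213 in peels. These 6 genes, with ranks 1 and 49 among them, held 44.6% of the summed FPKM of the list in W whole hypocotyls and 36.3% in W peels.

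Summed over the list, FPKM was 23348 in W and 2552 in shade in whole hypocotyls, and 22783 and 2828 in peels. As a share of the summed FPKM of all genes with a Brara identifier, the members went from 2.54% in W to 0.255% in shade in whole hypocotyls and from 2.63% to 0.294% in peels. FPKM was concentrated in a few entries, here counted with or without a Brara identifier. The 10 highest entries held 24.6% of the FPKM of all entries in W and 39.0% in shade in whole hypocotyls. In peels they held 35.8% and 32.7%. That total is not the one used for the shares of the members. No member reached 1000 FPKM in shade in either tissue, where 6 had done so in W in each. In W whole hypocotyls 39 members (26.0%) reached 100 FPKM, beside 7.06% of eligible genes. A gene had to keep 1 FPKM in shade after a fall of more than 5-fold, so the rule itself removes genes of low W level.

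The falls in the tissues lay within 0.5 of each other on the log2 scale for 95 of 150 members and within 1 for 140. Both are smaller shares than over all eligible genes, where 84.8% of the log2 ratios lay within 0.5 and 97.3% within 1. Most eligible genes changed little, with quartiles of -0.40 and 0.41 for that ratio in whole hypocotyls. The rule required a large fall in both tissues and limited both tissue ratios, so it bounds these gaps in part. In the mirror list, 150 eligible genes chosen by the same rule for a rise, 103 lay within 0.5 and 139 within 1. The wider gaps are thus not particular to the members. The fall was the larger in whole hypocotyls for 94 members and in peels for 56. In the mirror list the rise was the larger in whole hypocotyls for 65 genes and in peels for 85. The same count was not made for all eligible genes. Over the 21104 eligible genes the log2 ratios of W to shade had a Spearman's rho of 0.86 between the tissues, which share no library, and over the 150 members, whose range the rule cut, it was 0.56. These are correlations over genes, which are not independent replicates, and whole hypocotyls contain the epidermis that the peels isolate.

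**Figure D2:**
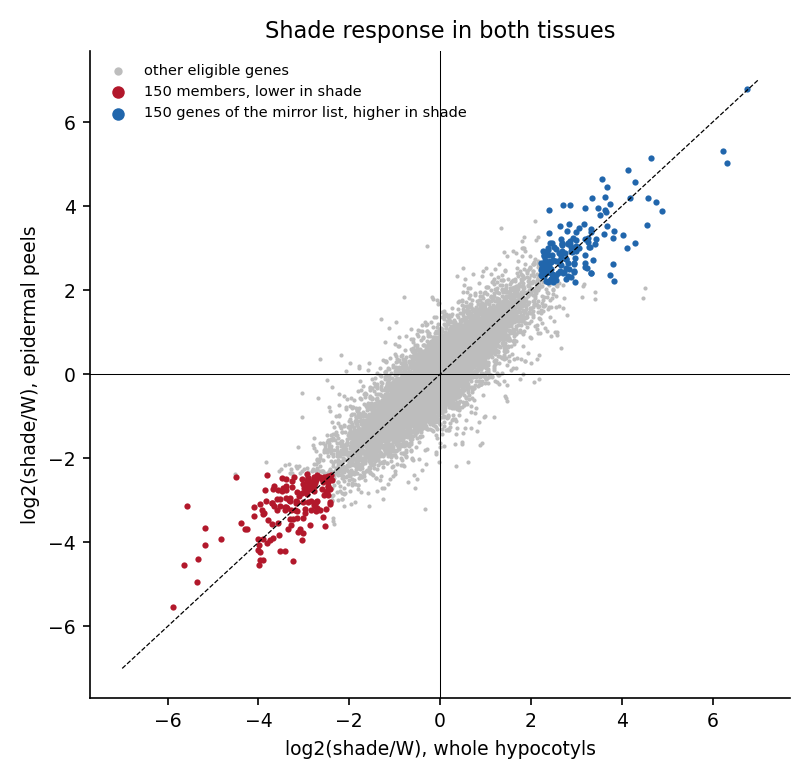
Log2 ratio of shade to W in whole hypocotyls and in epidermal peels for the 21104 eligible genes, with the 150 members in red and the 150 genes of the mirror list, chosen by the same rule for a rise, in blue; the dashed line marks equal responses. The members lie on both sides of the line, with 8 that fell by over 1 more in whole hypocotyls and 2 that fell by over 1 more in peels.

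Of the 10 members whose falls differed by more than 1, 8 fell more in whole hypocotyls. The widest gap was at rank 47, on chromosome A02, which went from 80.9 to 1.69 FPKM in whole hypocotyls and from 30.9 to 3.50 in peels. Its falls were 5.58 ± 0.38 and 3.14 ± 0.34 on the log2 scale. At rank 138, on A04, levels were 366 and 16.3 FPKM in whole hypocotyls and 108 and 19.8 in peels. In W this gene was lower in peels (log2 ratio of peel to whole -1.77, q = 0.000271 in the authors' deposited table), and in shade the tissues were not called different (log2 ratio 0.28, q = 0.345).

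Rank 20, on A05, came to differ between the tissues in shade instead. It had 260 FPKM in whole hypocotyls and 239 in peels in W, and 7.21 and 18.8 in shade. Peels against whole hypocotyls were not called in W (log2 ratio -0.12, q = 0.655) and were called higher in shade (log2 ratio 1.38, q = 0.000271 in the authors' deposited table).

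The 2 members that fell more in peels by over 1 were ranked 36 and 117. Rank 36, on A04, went from 137 to 14.6 FPKM in whole hypocotyls and from 152 to 7.02 in peels, falls of 3.23 ± 0.19 and 4.43 ± 0.24. Rank 117, on A05, went from 8.32 to 1.45 FPKM in whole hypocotyls and from 19.5 to 1.59 in peels. No test is given for any of these gaps, because both falls were used to choose the list.

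The balance between peels and whole hypocotyls was used by the rule only as a limit, set equally for all eligible genes. In W, the authors' deposited table called 49 members higher in peels, beside 16.8% of eligible and 18.5% of all genes tested, and 36 lower, beside 16.6% of eligible and 19.0% of all genes tested. That is 57.0% of the 149 members tested, where 33.4% of eligible genes were called in either direction. In shade 29 members were called higher in peels, beside 16.2% of eligible and 16.7% of all genes tested, and 12 lower, beside 15.0% of eligible and 18% of all genes tested. The 41 called in shade make up 27.7% of the 148 members tested, where 31.2% of eligible genes were called. The share called in either direction in shade is therefore near the background, but the directions differ. Members were called higher in peels more often than lower (29 against 12), while eligible genes were called 3396 higher and 3137 lower.

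The level of the genes moves with these shares. Of the 144 members with a mean of 10 FPKM or more over the tissues in W, 58.3% of those tested were called, beside 37.6% of eligible genes at that level. The other 6 members in W had 1 call, beside 25.1% of eligible genes under 10 FPKM. In shade 110 members had a mean under 10 FPKM, and 23.1% of those tested were called, beside 23.5% of eligible genes. Of the 40 members at 10 FPKM or more in shade, 16 were called, beside 35.5% of eligible genes. The size of the ratio itself does not depend on a call. Its log2 ratio was at least 1 in size for 39 members (26.0%) in W and 42 (28.0%) in shade, beside 10.5% and 12.4% of eligible genes. The part of level in these differences was not tested further.

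The 49 members higher in peels in W kept that balance in shade in about equal measure. Their median FPKM in W was 25.9 in whole hypocotyls and 57.7 in peels, and in shade 2.59 and 6.34. The median log2 ratio of peel to whole was 1.01 in W and 1.04 in shade. In shade 25 of the 49 were called higher in peels and 0 lower, beside 16.2% and 15.0% of all eligible genes tested. The share among eligible genes also called higher in peels in W was not computed. A kept balance is therefore not shown to be particular to the members. The largest ratio in W within the rule's limit of 2 was 1.99, at rank 81 on A06, with 19.1 FPKM in whole hypocotyls and 75.9 in peels in W, and 2.78 and 11.1 in shade.

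The 36 members lower in peels in W were closer to balance in shade. Their median FPKM in W was 53.6 in whole hypocotyls and 31.7 in peels, and in shade 5.09 and 3.68. The median log2 ratio of peel to whole was -0.79 in W and -0.27 in shade. These genes were grouped by their call in W, so a smaller ratio in shade may follow from that choice, which was not tested. In shade 8 of the 36 were called lower in peels and 0 higher, beside 15.0% and 16.2% of all eligible genes tested. Eligible genes called lower in peels in W were again not counted apart. Their median fall was 3.40 on the log2 scale in whole hypocotyls and 2.79 in peels. The W levels enter both the tissue ratio in W and the fall, so these numbers are tied by arithmetic. The member ranked 8, on A06, was lower in peels in both lights, with 71.4 FPKM in whole hypocotyls and 27.3 in peels in W, and 4.48 and 1.18 in shade.

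**Figure D3:**
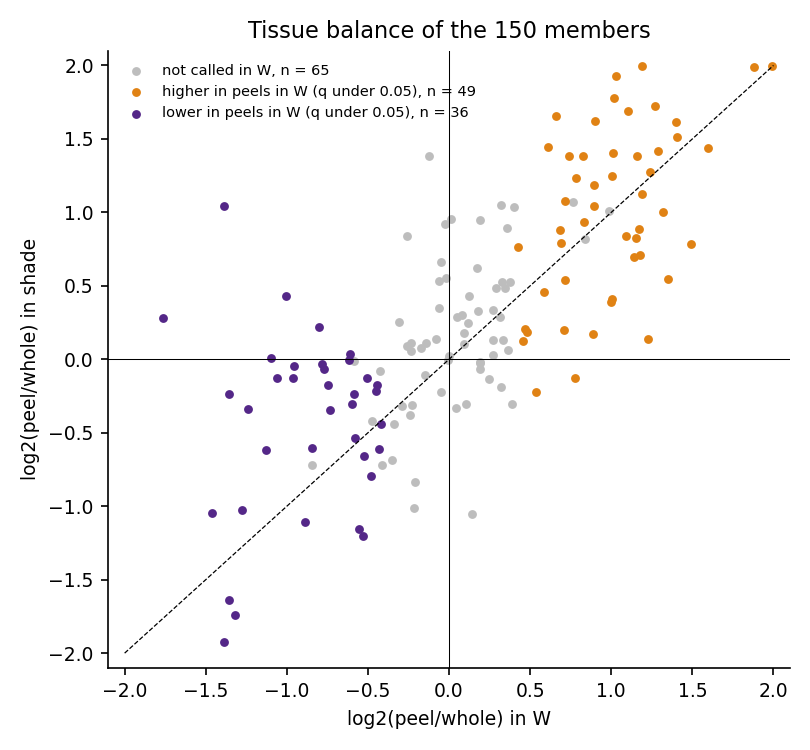
Log2 ratio of peel to whole hypocotyl in W against the same ratio in shade for the 150 members, coloured by the authors' call in W; the dashed line marks equal ratios. Of the 49 genes higher in peels in W, 47 stay above 0 in shade, and of the 36 lower in peels, 26 lie above the line. The same counts were not made for eligible genes.

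The authors also deposited the Brassica tables with a correction for multiply mapped reads, so levels without and with it can be compared. How the correction was made is not stated, so an unchanged level does not show that a gene has no reads shared with its copies. Of the 150 members, 146 appear in the corrected tables. For 136 of them all 4 levels moved by at most 0.1 on the log2 scale, and for 143 both log2 ratios of W to shade did. The same rule applied to the corrected tables gave a list of 150 that shared 143 genes with this one. These tables come from the same libraries and are no independent support.

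Levels moved by more than 0.5 in 5 members, while their shade responses changed little. At rank 100, on A02, the W level in whole hypocotyls was 174 FPKM without and 47.9 with the correction, and the fall was 3.26 and 3.22 on the log2 scale. Rank 49, on A03, went from 1283 to 640 FPKM in W whole hypocotyls with the correction, and its fall from 3.14 to 2.88. Rank 65, on A05, went from 101 to 55.6 FPKM with falls of 2.98 and 2.99. Over all 146 members the largest shift of a fall was 0.32. The level of these 5 genes is therefore uncertain.

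The 4 members not found in the corrected tables were ranked 26, 38, 103 and 124. Ranks 38 and 103 lie in 1 merged locus on A03 and had 21.3 and 458 FPKM in W whole hypocotyls. Rank 26, on A04, shares a merged locus with rank 24. In all 15 members (10%) sat in a locus that the tables share with another entry, beside 11.9% of eligible genes. The sources used here do not say how reads of overlapping genes were divided, so their levels are uncertain.

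**Figure D4:**
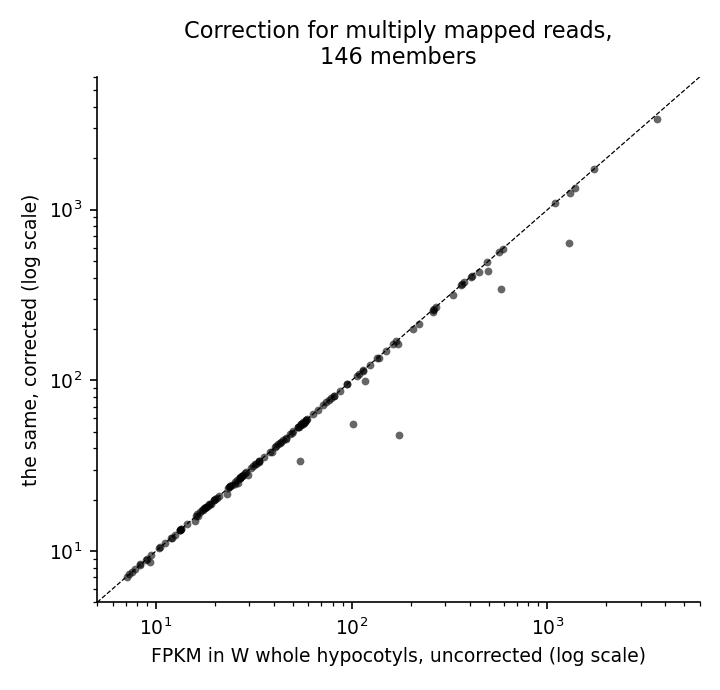
FPKM of 146 members in W whole hypocotyls without and with the correction of the authors for multiply mapped reads, both axes on a log scale, with the dashed line marking equal values. Most points lie on the line, and the points below it include ranks 100, 49 and 65.

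Members were spread over all 10 chromosomes and 5 scaffolds. Chromosome A04 held 22 members, 1.64% of its 1343 eligible genes, and A10 held 4, or 0.242% of its 1652 eligible genes. Chromosomes A01, A02, A03, A05, A06, A07, A08 and A09 held from 9 to 19 members, between 0.443 and 0.891% of their eligible genes. In the mirror list, chosen by the same rule for a rise, A04 held 7 genes (0.521%) and A10 held 9 (0.545%). No test of this distribution was made.

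**Figure D5:**
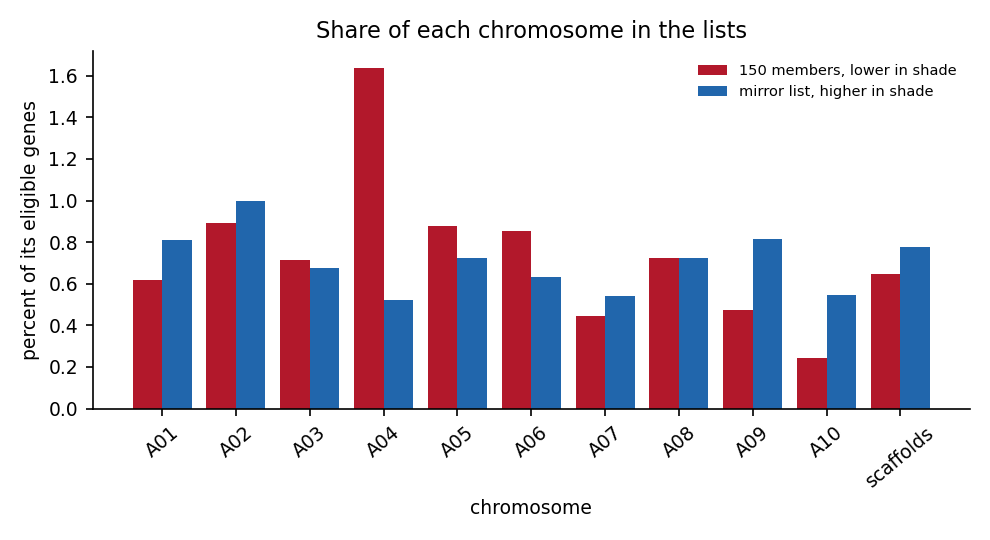
Percent of the eligible genes of each chromosome, and of the unplaced scaffolds, that belong to the list of 150 members (red) and to the mirror list (blue). The red bar of A04 stands at 1.64% and that of A10 at 0.242%, with 0.521% and 0.545% for the mirror list.

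Within 50 kb of each other lay 10 pairs of members, made of 19 genes on 6 chromosomes. In 6 pairs the identifiers were consecutive, and 2 pairs shared a merged locus, so their levels may not be separate measurements. Ranks 29 and 73, on A03, were 1.35 kb apart and fell by 3.34 and 2.87 on the log2 scale in whole hypocotyls and by 3.68 and 3.59 in peels. Ranks 42 and 83, on A02, were 1.62 kb apart and fell by 3.40 and 2.76 in whole hypocotyls and by 3.16 and 3.14 in peels. In the mirror list 22 pairs with 35 genes lay within the same distance. Distances were taken between listed loci, which can span more than 1 gene where entries were merged. The same count was not made for all eligible genes, so whether 10 pairs are many or few is not known.

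The mirror list of the 150 eligible genes that rose most in both tissues gives the scale of these falls. Its border score was 2.19, against 2.38 for the fall, and its median rise was 6.95-fold in whole hypocotyls and 7.32-fold in peels. The rise of its first gene, Brara.I00541 on chromosome A09 from 3023978 to 3026038, was larger than any fall, from 1.22 to 133 FPKM in whole hypocotyls and from 1.63 to 179 in peels. Scores of at least 2 were reached by 278 eligible genes that fell and 204 that rose, and scores of at least 4 by 6 and 9. With q under 0.05 in both tissues, 14.5% of eligible genes tested fell, 15.2% rose and 0.0622%, which is 13 genes, moved in opposite directions, according to the authors' deposited tables. The median level that the lists reached when high was 40.8 FPKM in W for the fallen genes and 67.8 in shade for the risen ones, both in whole hypocotyls. Peels against whole hypocotyls were called for 62 genes of the mirror list in W, 45 higher and 17 lower in peels, and for 76 in shade, 59 higher and 17 lower, beside the 33.4% and 31.2% of eligible genes given above for either direction.

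The rule left out genes that fell as far but to a lower level. Another 263 genes with a Brara identifier had at least 1 FPKM in W in both tissues, scores past the border and a shade FPKM under 1 in a tissue. Their median W level was 4.52 FPKM in whole hypocotyls and 4.41 in peels, and 25 of them had at least 10 FPKM in W in both. The authors' deposited tables called 151 of the 263 lower in both tissues, where 14.5% of eligible genes tested were. These genes were picked for their fall, so that count is only a description. In shade 36 of the 263 were listed at 0 in at least 1 tissue. A further 19 genes fell as far but lay outside the limit on the ratio of peel to whole, and 25 entries without a Brara identifier met every other condition.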

How the data were processed

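Polyadenylated RNA of the 12 Brassica libraries was sequenced as stranded single-end reads of 50 bp, per the labels' protocols. Per the submitters' processing notes, CASAVA 1.8.2, TopHat2 2.0.9, Bowtie2 2.1.0, Cufflinks and Cuffdiff were used, and the notes name TAIR10 for all samples. The sources used here do not state the Brassica build. The authors deposited 1 FPKM per gene and group, with a Cuffdiff test statistic (a score), p-value and q-value for each pair of groups. The 4 tables without and the 4 with a correction for multiply mapped reads were used. Depth per library is unknown, so no precision from depth can be stated, and the deposited p-values reflect only variation among these libraries, which may be technical.

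Log2 ratios were computed here from the group FPKM without a pseudocount, using Python 3.11.15, pandas 2.3.3 and scipy 1.17.1. A call is q under 0.05 among genes the authors marked as tested. A standard error is the log2 ratio over the deposited statistic, scaled by the median of that statistic over the normal deviate of p (0.670 to 0.762). It is too small by a factor of over 2 for 7.45 to 9.63% of genes with a p above the lowest deposited one. Genes at the lowest p, such as Brara.G02312 and Brara.D00896 for their falls, could not be checked in this way. The code for the ranking and this factor was checked on simulated data with planted falls and the same factor for all genes. That check cannot show how accurate the standard errors, or the ranking of genes near 1 FPKM, are in these data. No new test was run.

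The members and the rules were chosen with earlier results of these data known. Without gene names, identifiers are given only for the highest rank, the highest W level among members called in both tissues, and the first gene of the mirror list. Other members were picked for the text after their values were seen. Gene lists and cell type markers of Arabidopsis could not be applied.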

Additional observations from a re-analysis of the deposited data

How the results depend on the processing

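Of 29 alternative results, 24 stayed within 1.5 times the reported count or, for medians, within a typical standard error. Most are counts, which have no direction, and the median falls could not reverse because the members were chosen for a fall. The counts called lower in shade likewise rest on the contrasts that chose the list. The list itself depends most on the FPKM minimum. With a minimum of 5 FPKM the rule kept 59 of the 150 members, as the other 91 were under 5 FPKM in a group. With any value above 0 it kept 52, since genes of lower level took the other places. It kept between 129 and 149 with a pseudocount of 1, a mean score, no limit on the tissue ratio, centred folds or the corrected tables. A pseudocount of 1 FPKM lowered the median log2 fall to 2.87 in whole hypocotyls and 2.72 in peels. At a q under 0.01, 7 members were called lower in peels in shade, where 12 were at 0.05; those lower in peels in W went from 36 to 26 and those higher in shade from 29 to 22. Members with a neighbouring member went from 19 to 26 at 100 kb. Members of a shade level near 1 FPKM are limited most by depth, which is unknown. Leaving out a replicate could not be run on pooled values. No paired analysis was possible because the tables hold 1 pooled value per group and carry no replicate numbers.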
